A study of Mus musculus with 16 samples.

Results

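Potassium channel subunit genes were taken as the symbols made of Kcn, family letters and a number, with Kcnj10 and Kcnj16 left out, which gave 90 genes of the 24060 measured. A mean above 1 CPM (counts per 1e6 gene reads of the library) over the 16 libraries was reached by 70 of them, 61 that encode pore-forming subunits and 9 that encode auxiliary subunits, beside 13341 genes in all. Of the other 20 genes, 5 had no read in any library (Kcnj1, Kcnk16, Kcnk18, Kcnmb3 and Kcnv2), and none of the 4 KCNE genes passed. The genes just above the limit were Kcna5 (1.12 CPM), Kcnu1 (1.73) and Kcnj8 (1.96), and those just below were Kcnk5 (0.462), Kcne4 (0.392) and Kcnh8 (0.320).

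The libraries came from the somatosensory cortex of Aldh1l1CreERT2-RiboTag mice on C57BL/6J, aged 3 months, all of which had received tamoxifen at 2 months. In these animals the Aldh1l1 promoter drives an inducible Cre in astrocytes, which places an HA tag on a ribosomal protein, so that precipitation with anti-HA yields ribosome-bound RNA of the tagged cells (IP), while INPUT is the RNA of the lysate before precipitation. Naïve mice stayed in their home cage, and stressed mice swam for 20 min and rested for 90 min before collection. Each combination of condition (naïve or stress) and fraction (IP or INPUT) held 4 libraries, which made 4 groups, males and females were both used, and neither the sex of a library nor the IP and INPUT libraries of 1 mouse were given by the labels. Libraries held 16392876 to 25814364 gene reads, so that 3 reads were worth at most 0.183 CPM.

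Potassium channels let potassium leave or enter cells along its gradient and so set the resting potential and end action potentials. Voltage-gated (Kv, KCNQ, EAG and ERG), calcium- or sodium-activated (BK, SK and their relatives), inwardly rectifying (Kir) and K2P leak channels differ in what opens them, while auxiliary subunits such as Kv beta and KChIP alter gating and trafficking. Astrocytes are known for a high resting potassium conductance that clears potassium released by active neurons, and neurons for a wide range of voltage-gated channels.

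The pore-forming subunits share a short selectivity filter, and its coding bases show what the family has in common and where the members discussed below differ. The filter signature was searched by name in frame, as a codon for threonine or serine, any codon, a glycine codon, a codon for tyrosine, phenylalanine or leucine, and a glycine codon, in the longest coding transcript of each gene (GENCODE, GRCm38). It was found in all 61 pore-forming genes and in 0 of the 9 auxiliary genes, against 5.42% of all 21462 genes with a coding sequence, and 2 copies were held by each of the 9 K2P genes. The pattern also matched at 2 places in Kcna6 and in Kcnh2, and whether both places lie in a filter was not checked. The lines give 30 bases, 5′ to 3′, on the coding strand, with the 15 signature bases in capitals; Kcng4, Kcnj14, Kcnj13 and Kcnk1 are genes higher in IP, Kcnk2 did not pass the test, and Kcna2 is an abundant gene lower in IP.
Kcng4: atgacgACCGTGGGCTATGGGgacatggtc
Kcnj14: cagacgTCCATAGGCTATGGTgtgcgcagc
Kcnj13: caacttACAATTGGTTATGGTaccatgttt
Kcnk1, upstream copy: ctctccACCACAGGCTATGGCcacacggtg
Kcnk1, downstream copy: ctgagcACCATCGGCCTGGGGgactatgtt
Kcnk2, upstream copy: atcacaACCATAGGATTTGGAaacatctcc
Kcnk2, downstream copy: ctgacgACCATTGGATTTGGAgactacgtg
Kcna2: atgacaACTGTAGGCTATGGAgacatggtt
These bases lie in coding exons at chr8:119625901-119625930 (minus strand) for Kcng4, chr7:45819624-45819653 (minus) for Kcnj14, chr1:87389012-87389041 (minus) for Kcnj13 and chr3:107105218-107105247 (plus) for Kcna2. The downstream copies lie at chr8:126025323-126025352 (plus) for Kcnk1 and chr1:189256572-189256601 (minus) for Kcnk2, and each upstream copy is split by an intron. The match is of letters only and says nothing of how these RNAs behaved.

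Comparing IP with INPUT asks which subunit RNAs were enriched on astrocyte ribosomes over the whole cortex lysate. In naïve mice 6 of the 70 genes were higher in IP, namely Kcnn3, Kcnj14, Kcnk1, Kcnn2, Kcng4 and Kcnj13, 59 were lower and 5 did not pass the test (limma on log2(CPM + 0.1), adjusted p under 0.05). Over all genes tested 23.7% were higher and 64.0% were lower, and the median log2 ratio was −3.15 over the 70 genes and −0.64 over all genes. The limit on levels was a mean over IP and INPUT libraries together, so some members passed it only through INPUT. Examples are Kcna5 (0.088 CPM in naïve IP, 1.79 in naïve INPUT), Kcnj8 (0.252 and 3.92) and Kcnmb2 (0.361 and 3.92). Kcnh6 (0.424 and 3.55), Kcns3 (0.641 and 8.92) and Kcng1 (0.666 and 7.09) were also under 1 CPM in naïve IP. So were Kcnu1 (0.692 and 2.78), Kcng2 (0.716 and 4.14) and Kcnk6 (0.838 and 7.87), and all of these enter the family counts below. For such members the lower call was in part set by the limit, in naïve and in stressed mice. The sum over the 70 genes was 2025 ± 118 CPM in naïve IP and 7420 ± 285 CPM in naïve INPUT (SD, n = 4). In such bulk samples, fewer cells of a type and less RNA per cell cannot be told apart. The ratio also sets ribosome-bound RNA against lysate RNA, and ribosome binding was not measured apart from RNA level.

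The label of the fractions was checked against marker lists. All 9 astrocyte markers were higher in IP (log2 ratios 2.87 to 4.13), with a summed level of 92115 to 96370 CPM in naïve IP and 5961 to 6343 CPM in naïve INPUT. The 10 neuronal markers were all lower in IP (−5.11 to −3.76), with sums of 485 to 626 CPM in naïve IP and 10943 to 11409 CPM in naïve INPUT, and none was at 0 in all naïve IP libraries. Lists for other cells gave medians of −3.50 (7 oligodendrocyte genes, 6 lower and Cnp higher), −1.53 (3 precursor genes, 2 lower and Olig2 higher), −3.15 (6 microglial genes, all lower), −2.31 (6 endothelial genes, all lower) and −1.46 (3 of 4 mural genes passed, 2 lower and Pdgfrb higher). Of 5 choroid plexus genes, Ttr and Kl passed the limit on levels and neither passed the test. Of the 70 channel genes, 14 had a ratio at or below the highest neuronal marker and 56 lay above it.

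**Figure D1:**
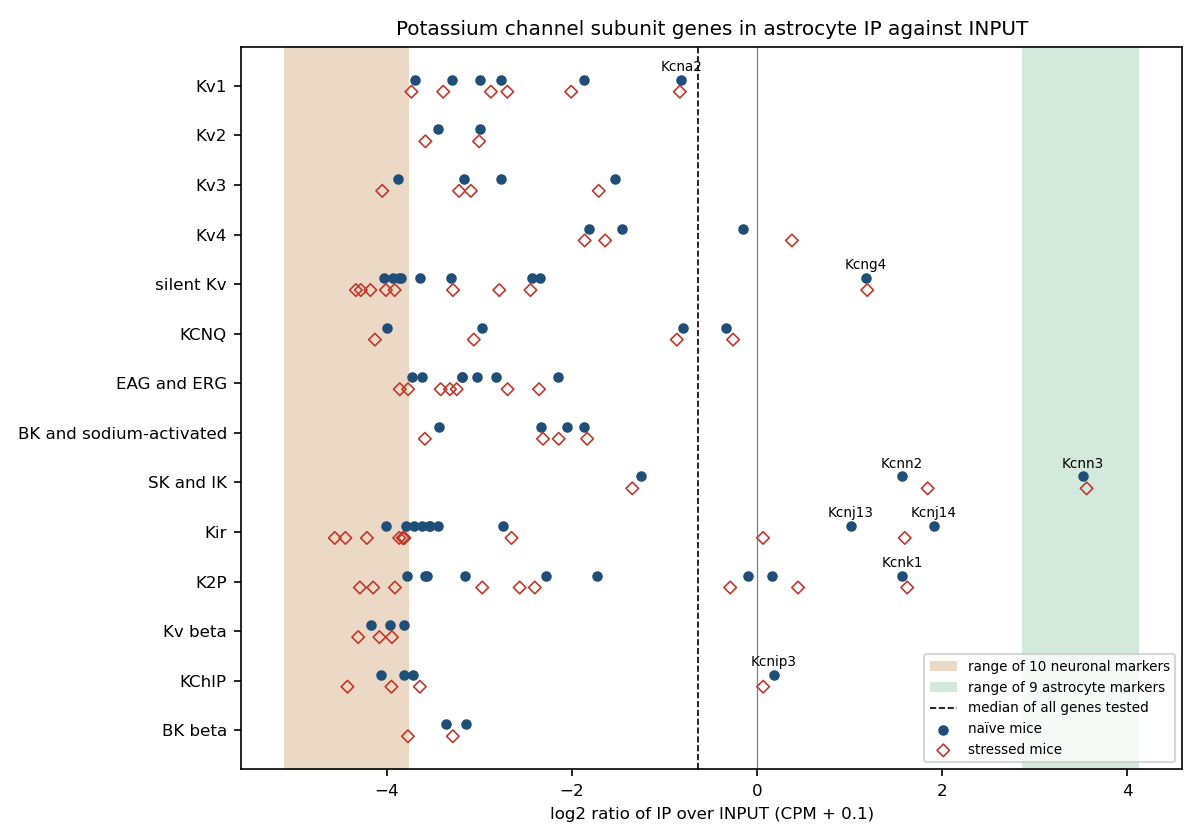
Log2 ratio of IP over INPUT (horizontal axis, CPM + 0.1) of the 70 genes, grouped by channel family (vertical axis), in naïve mice (filled circles) and stressed mice (open diamonds). Shaded bands are the ranges of 10 neuronal and 9 astrocyte markers in naïve mice and the dashed line is the naïve median of all genes (−0.64); Kcnn3 at 3.52 is the only gene inside the astrocyte band.

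Small-conductance calcium-activated (SK) channels, which open when cytosolic calcium rises, held the highest ratio. Kcnn3 measured 137, 136, 130 and 157 CPM in the naïve IP libraries and 12.1, 13.8, 10.9 and 11.6 CPM in the naïve INPUT libraries. Every IP value lay far above every INPUT value, and the means of 140 ± 11.8 and 12.1 ± 1.23 CPM (SD, n = 4) differed 11.6-fold (log2 ratio 3.52, SE 0.084, limma adjusted p = 1.2e-13). Kcnn2, a second SK subunit, measured 98.6, 94.1, 125 and 94.6 CPM in naïve IP and 34.4, 34.6, 34.0 and 35.0 CPM in naïve INPUT. The groups did not overlap (log2 ratio 1.57, SE 0.084, limma adjusted p = 5.6e-10), and the highest value was that of naïve IP replicate 11. Kcnn1, the remaining SK gene above the limit, was lower in IP at 10.1 against 24.1 CPM (log2 ratio −1.25), so that the 3 genes of 1 family took both directions. Kcnn3 spans chr3:89520164-89675132 on the plus strand and Kcnn2 spans chr18:45268860-45686024 on the plus strand (GRCm38).

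Among the K2P genes, whose channels pass leak current at rest, Kcnk1 was the gene with the most reads in IP after Kcna2. It measured 324, 320, 305 and 317 CPM in naïve IP and 112, 109, 102 and 103 CPM in naïve INPUT, a 2.97-fold difference with no overlap (log2 ratio 1.57, SE 0.051, limma adjusted p = 2.3e-12). Kcnk1 spans chr8:125995170-126030685 on the plus strand (GRCm38). Kcnk2 and Kcnk10 encode mechano- and lipid-sensitive leak channels, and neither passed the test. Kcnk2 measured 34.7, 34.1, 48.5 and 35.1 CPM in naïve IP and 33.0, 41.0, 46.5 and 42.1 CPM in naïve INPUT, with overlapping groups (log2 ratio −0.10, 95% interval −0.37 to 0.17, limma adjusted p = 0.46). Kcnk10 measured 9.40, 11.4, 8.54 and 10.7 CPM in naïve IP and 9.32, 7.83, 9.43 and 9.15 CPM in naïve INPUT, also overlapping (log2 ratio 0.16, 95% interval −0.09 to 0.41, limma adjusted p = 0.21). The other 6 K2P genes were lower in IP, from Kcnk12 at −3.78 to Kcnk13 at −1.73.

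Kir channels pass inward current more readily than outward current, and 8 of the 10 tested were lower in IP, from Kcnj4 (−4.01) to Kcnj6 (−2.75), a group that includes the G protein-gated subunits Kcnj3, Kcnj6 and Kcnj9. Kcnj14 and Kcnj13 were the exceptions, both at low levels. Kcnj14 measured 4.31, 3.49, 4.86 and 4.34 CPM in naïve IP and 1.52, 0.765, 0.997 and 1.02 CPM in naïve INPUT. The groups did not overlap (log2 ratio 1.91, SE 0.22, limma adjusted p = 1.5e-06), although the INPUT values rest on 13 to 27 reads a library. Kcnj13, known for its place in the choroid plexus and retinal pigment epithelium, measured 3.87, 1.79, 5.56 and 1.63 CPM in naïve IP and 1.30, 0.706, 1.65 and 2.14 CPM in naïve INPUT. Replicates 2 and 11 of naïve IP were high while the other IP values lay within the INPUT range, and the call (log2 ratio 1.01, SE 0.39, limma adjusted p = 0.027) was lost without naïve IP replicate 2 (adjusted p = 0.080), naïve IP replicate 11 (0.088), naïve INPUT replicate 3 (0.053) or naïve INPUT replicate 7 (0.092). The choroid plexus gene Ttr measured 114 CPM in naïve IP replicate 2 and 3.45 CPM in replicate 11, where Kcnj13 was highest. Replicates 8 and 13 of naïve IP held 3.27 and 1.59 CPM of Ttr. In naïve INPUT, Ttr measured 13.4 CPM in replicate 3, where Kcnj13 was 1.30 CPM, and from 0.294 to 0.966 CPM in the other libraries. The summed level of the 5 choroid plexus genes ranged from 3.18 to 127 CPM in naïve IP and from 4.12 to 17.8 CPM in naïve INPUT. Kcnj13 also lies inside Gigyf2 on the opposite strand, and whether reads were counted by strand was not given, and the part of neither in this value was tested.

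Silent Kv subunits form no channel on their own and modify the Kv2 channels they join. Kcng4 was the only 1 of 9 tested that was higher in IP, at 51.4, 51.3, 29.1 and 57.3 CPM in naïve IP and 24.4, 21.6, 14.5 and 21.7 CPM in naïve INPUT. Naïve IP replicate 11 was lower than the other IP libraries yet above every INPUT value (log2 ratio 1.18, SE 0.20, limma adjusted p = 7.6e-05). The other 8 were lower in IP, with Kcnv1 (−4.03), Kcns2 (−3.94), Kcnf1 (−3.87) and Kcns1 (−3.85) among the 12 lowest ratios of all members. The Kv2 partner Kcnb2 was lower in IP too (−3.45), at 3.90 against 43.5 CPM.

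Voltage-gated genes of the other families were lower in IP with few exceptions. All 6 Kv1 genes that passed the limit were lower, from Kcna1 (−3.69) to Kcna2 (−0.82), although Kcna5 rests on 1 to 3 reads in each naïve IP library and its fold is not given. Kcna2, which encodes an axonal delayed rectifier subunit, measured 375, 409, 310 and 402 CPM in naïve IP and 684, 679, 574 and 695 CPM in naïve INPUT, with no overlap (SE 0.088, limma adjusted p = 9.3e-07). It was the member with the most reads in both fractions, and its ratio stood close to the median of all genes. The 4 Kv3 genes, which serve fast spiking, were lower from Kcnc2 (−3.88) to Kcnc4 (−1.53). Of the 3 Kv4 genes, which carry the A-type current, Kcnd2 (−1.82) and Kcnd3 (−1.46) were lower and Kcnd1 did not pass (−0.15). Among KCNQ genes, which carry the M-current, Kcnq5 (−3.99) and Kcnq3 (−0.80) were lower. The 7 EAG and ERG genes were all lower (−3.73 to −2.15), as were the 4 BK and sodium-activated genes, with Kcnt2 at −3.43, Kcnma1 at −2.05 and Kcnu1 at −1.87. Of these, Kcnh6 and Kcnu1 passed the limit on levels only through INPUT, and Kcnu1 rests on 12 to 20 reads in each naïve IP library.

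The auxiliary subunits were lower in IP in 8 of 9 cases. Kcnab1 had the lowest ratio of all members, at 4.60, 3.90, 4.62 and 4.61 CPM in naïve IP and 78.7, 81.2, 82.5 and 82.0 CPM in naïve INPUT (log2 ratio −4.17, SE 0.081, limma adjusted p = 2.6e-14), and Kcnab2 (−3.96) and Kcnab3 (−3.82), the other Kv beta genes, lay close to it. The KChIP genes, whose products bind calcium and Kv4 channels, split. Kcnip4 (−4.06), Kcnip1 (−3.81) and Kcnip2 (−3.72) were lower, whereas Kcnip3, whose product also acts as a transcriptional repressor, measured 220, 203, 162 and 222 CPM in naïve IP and 184, 188, 177 and 159 CPM in naïve INPUT. Its groups overlapped through naïve IP replicate 11 (log2 ratio 0.18, 95% interval −0.01 to 0.38, limma adjusted p = 0.074), and without that library it was called higher (0.28, adjusted p = 0.00097). The BK beta genes Kcnmb4 (−3.36) and Kcnmb2 (−3.14) were lower, although Kcnmb2 rests on 5 to 11 reads in each naïve IP library and its fold is uncertain. Also lower were all 13 that passed the limit among 15 channel partners without a Kcn symbol, such as the sulfonylurea receptors, Dpp6 and the Hcn genes (median −3.22).

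**Figure D2:**
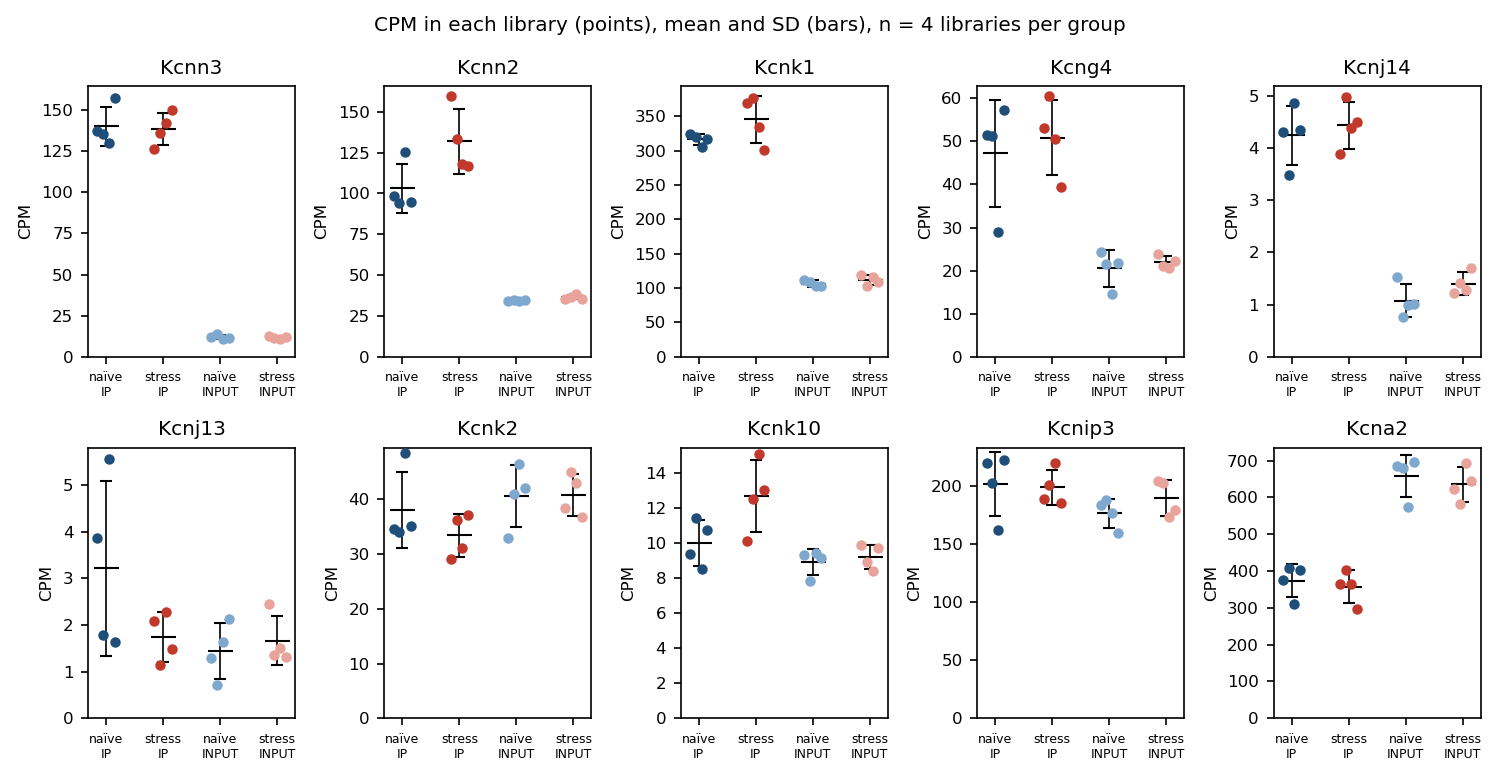
CPM of 10 genes (vertical axes, each with its own scale from 0) in every library of the 4 groups (horizontal axis); points are libraries and bars give mean and SD (n = 4). Kcnn3, Kcnn2, Kcnk1, Kcng4 and Kcnj14 have no overlap between IP and INPUT, Kcnj13 overlaps, and Kcna2 lies higher in INPUT.

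The calls above depend on the scaling of the libraries. Relative to the median of all genes, 11 of the 70 members lay above it and 59 below. Rescaling each library by its median ratio, which moved the median of all genes to −0.01, gave 10 higher and 58 lower members, and quantile normalization gave 11 higher and 59 lower. Over all 13341 genes tested in naïve mice, CPM gave 3162 higher and 8536 lower, median ratio rescaling 5575 and 5659, and quantile normalization 5646 and 5486. Under both of these other scalings, Kcnip3, Kcnk10, Kcnk2 and Kcnd1 were called higher. The lower call of Kcna2 was lost under median ratio rescaling (−0.18, adjusted p = 0.058). The 6 genes called higher by CPM stayed higher under both.

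Levels between genes were compared as CPM per kb of exon (GENCODE exon union, while the reads were counted on RefSeq). In naïve IP the highest was Kcnk1 at 142 ± 3.59 CPM per kb, then Kcnip3 at 57.0 ± 7.81 and Kcna2 at 31.4 ± 3.79 (SD, n = 4), and the values of these neighbours did not overlap between libraries. Kcnn2 (13.8 ± 2.00), Kcnn3 (13.4 ± 1.13), Kcng4 (12.4 ± 3.27), Kcnd2 (9.14), Kcna1 (8.02) and Kcnk2 (7.71) followed, each overlapping with the next. Of these, Kcnd2 (log2 ratio −1.82) and Kcna1 (−3.69) were lower in IP than in INPUT, and the highest neuronal marker, Nefl, stood at −3.76. The part of neuronal RNA in these IP levels was not tested. Kcnk1 made up 35.2% of the summed per-kb level of the members in naïve IP and 3.79% in naïve INPUT. In INPUT the order began with Kcna1 (104 ± 13.9 CPM per kb), Kcnab2 (83.5) and Kcna2 (55.3), and Kcnj4 (50.8), Kcnip3 (49.8), Kcnj9 (49.0) and Kcnk1 (47.7) were among the next. The values of Kcna1 and Kcnab2 overlapped, and those of Kcnab2 and Kcna2 did not. Kcnj4, Kcnip3, Kcnj9 and Kcnk1 each overlapped with the next gene in this order. Kcnn3 ranked 5 of 70 in naïve IP and 63 of 70 in naïve INPUT.

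**Figure D3:**
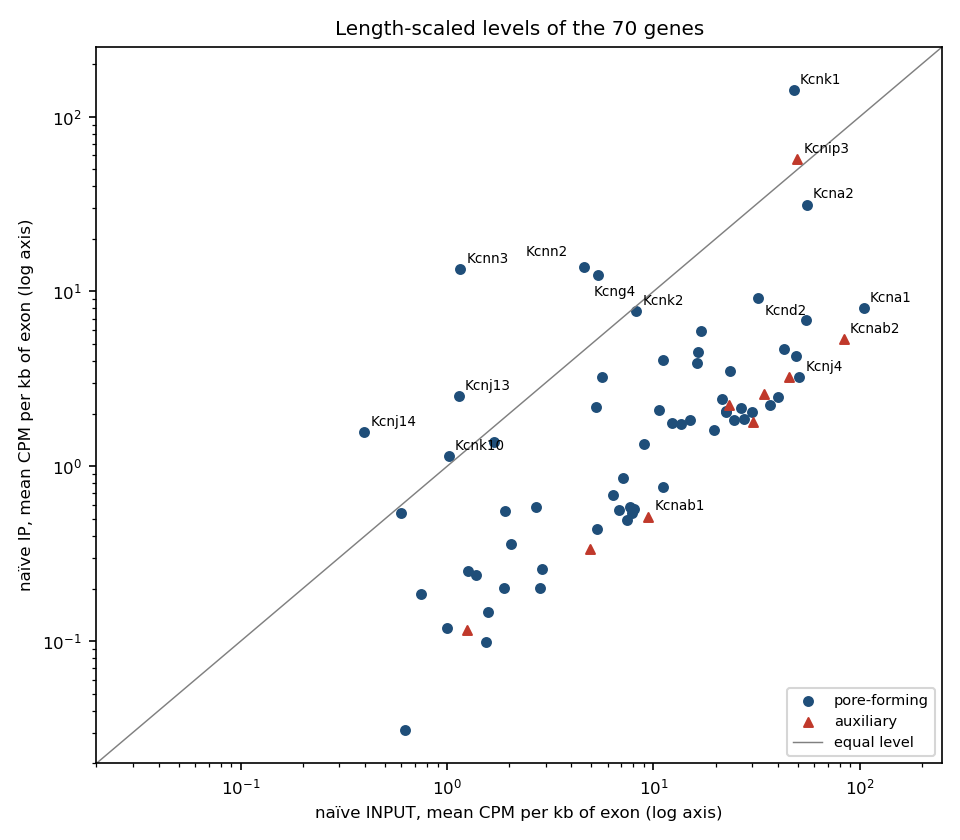
Mean CPM per kb of exon of the 70 genes in naïve INPUT (horizontal log axis) and naïve IP (vertical log axis), with pore-forming subunits as circles and auxiliary subunits as triangles; the line marks equal levels. Kcnk1 (142 in IP, 47.7 in INPUT) is highest in IP, and Kcnn3 (13.4 against 1.16) lies farthest above the line.

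After stress the comparison of IP with INPUT gave 6 higher and 60 lower members, with 4 not passing (all genes 23.6% higher and 62.4% lower), and a median of −3.23 (all genes −0.63). Of the calls, 59 were lower and 5 higher in both naïve and stressed mice, and the ratios of 63 of the 70 genes differed by under 0.5 between them. Kcnn3 (3.56), Kcnn2 (1.85), Kcnk1 (1.62), Kcnj14 (1.60) and Kcng4 (1.19) were higher in both. Kcnj13 did not pass in stressed mice (0.07, limma adjusted p = 0.83). Kcnk10 did, at 10.1, 12.5, 15.1 and 13.0 CPM in stress IP against 9.88, 8.93, 8.40 and 9.71 CPM in stress INPUT (0.44, limma adjusted p = 0.0063), while Kcnk2 was lower (−0.29, limma adjusted p = 0.016) with overlapping values. Whether a ratio differed between naïve and stressed mice is the interaction given below.

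Comparing stressed with naïve mice asks whether swim stress changed these RNAs on astrocyte ribosomes. In IP, 0 of the 70 genes passed the test (limma, all genes 0.435%), and voom on the recovered reads also called 0. At an unadjusted p under 0.05 limma gave 9, of which 2 were higher and 7 lower (all genes 8.01%), and voom gave 9. The smallest adjusted p was 0.34, and it ranged from 0.051 to 0.65 over the alternative settings. By sign 52 of the 70 lay below 0 and the median log2 difference was −0.12, against 51.6% below 0 and a median of −0.01 over all genes. Groups did not overlap for 0 higher genes (all genes 2.29%) and for 2 lower genes, Kcnip4 and Kcng3 (all genes 2.57%), and Kcng3 was named after its values were seen. The 95% interval lay within 1 log2 unit of no change for 61 genes and within 0.5 for 29.

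The members with the smallest p in IP are given as values. Kcnj3, a G protein-gated Kir subunit, measured 10.9, 9.76, 12.0 and 10.2 CPM in naïve IP and 7.76, 7.45, 7.80 and 9.84 CPM in stress IP (log2 difference −0.39, SE 0.12, limma adjusted p = 0.34), and overlapped through stress IP replicate 15. Kcnn2 measured 98.6, 94.1, 125 and 94.6 CPM in naïve IP and 159, 133, 118 and 117 CPM in stress IP (0.35, SE 0.11, limma adjusted p = 0.37), and overlapped through naïve IP replicate 11. Kcnj9 (−0.39), Kcnmb4 (−0.41) and Kcnc1 (−0.35) had lower means after stress. Kcnj8 was near the limit of counting, with 4 to 9 reads in naïve and 0 to 4 reads in stress IP libraries, and no fold is given. Kcnip4, without overlap, measured 6.51, 6.49, 6.85 and 6.2 CPM in naïve IP and 5.35, 4.44, 6.07 and 5.22 CPM in stress IP (−0.31, limma adjusted p = 0.56), where the exact permutation p of 0.0286 is the smallest that 70 labelings allow. By family, the 10 Kir genes had a median of −0.34 with 8 below 0, the 9 K2P genes −0.18, and the 3 SK genes −0.02. The Kir median includes Kcnj8, near the limit of counting, and Kcnj13, which was high in naïve IP replicates 2 and 11. Medians of the other families ran from −0.19 (Kv3, 4 of 4 below 0) to −0.04 (Kv4).

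Neuronal markers lay beside these values. In IP 9 of the 10 were below 0 after stress with a median of −0.24 and none passed the test, and their summed level was 403 to 578 CPM in stress IP against 485 to 626 CPM in naïve IP. Endothelial (6 of 6 below 0, median −0.43), precursor (3 of 3, median −0.25) and choroid plexus genes (2 of 2, median −1.24) also lay below 0, microglial (4 of 6, −0.14), oligodendrocyte (4 of 7, −0.06) and mural genes (2 of 3, −0.25) did so in part, and 0 of these passed. Their part in the channel values was not tested. The astrocyte genes had a median of 0.02, with Sox9 the only 1 of 9 past the test (−0.65), and the 13 channel partners a median of −0.16 with 0 past the test.

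**Figure D4:**
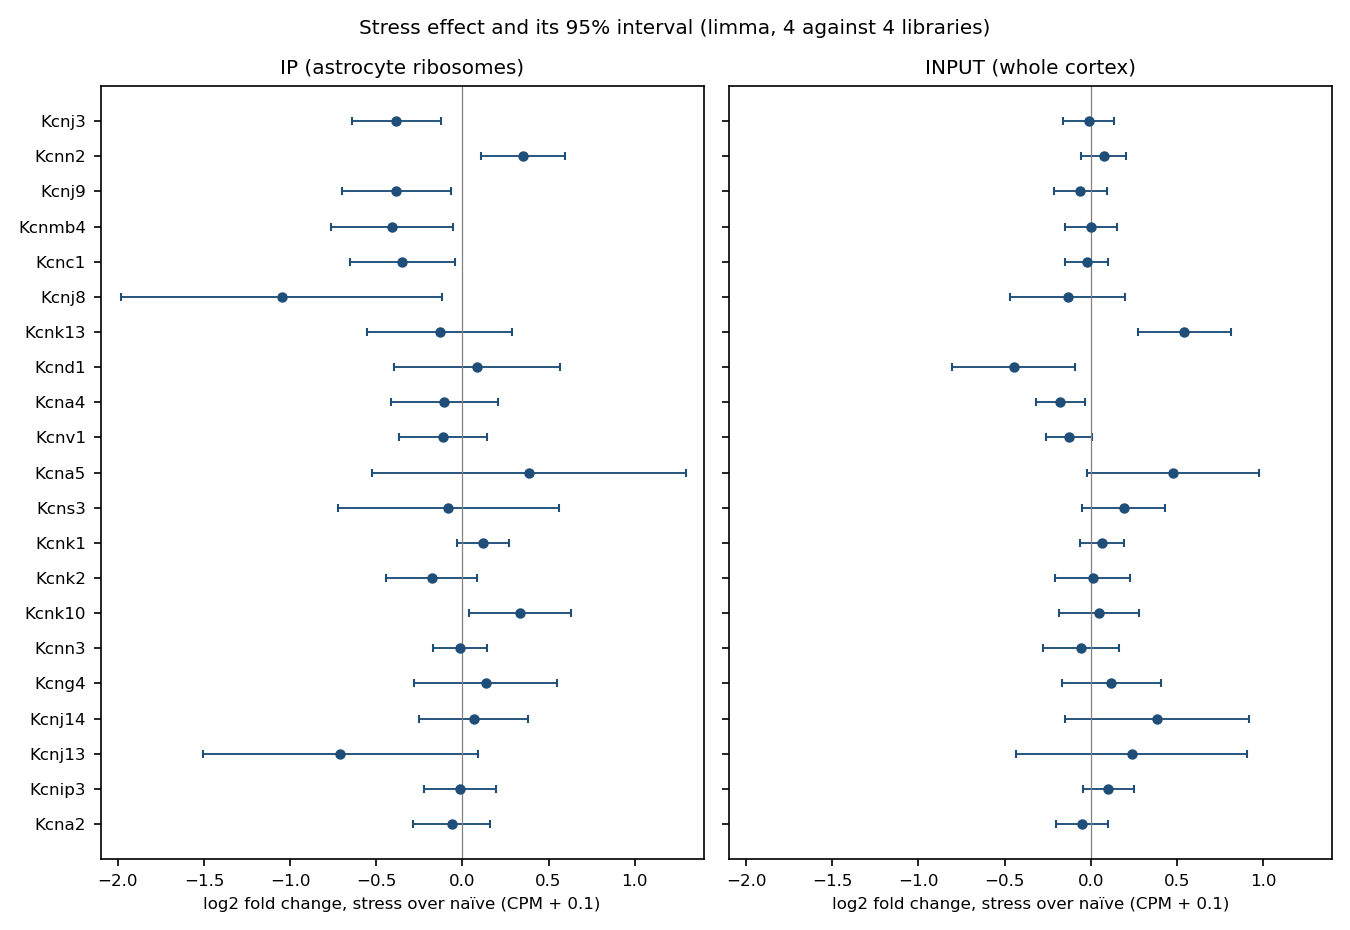
Log2 difference of stress over naïve (horizontal axes, CPM + 0.1) with its 95% interval from limma for 21 genes (vertical axis), in IP (left) and INPUT (right), 4 against 4 libraries. No gene passed the test; Kcnj3 and Kcnn2 had the smallest p in IP and Kcnk13 (0.54) in INPUT.

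In INPUT, 0 of the 70 genes passed the test after stress (limma, all genes 0.0450%), with 3 at an unadjusted p under 0.05 (limma background 5.00%), and voom gave 0 and 3. The median was 0.01, and the 95% interval lay within 0.5 log2 units of no change for 61 genes and within 1 for all 70. Kcnk13, a leak channel known in microglia, measured 5.53, 6.24, 5.54 and 6.46 CPM in naïve INPUT and 8.05, 7.86, 8.54 and 10.5 CPM in stress INPUT. Every stressed value lay above every naïve value (0.54, SE 0.13, limma adjusted p = 0.25, range 0.071 to 0.82 over the other settings, exact permutation p = 0.0286). The microglial genes in INPUT were below 0 for 5 of 6 with a median of −0.13, and 0 passed the test. The lowest were Cx3cr1 (−0.26), at 36.2 to 47.2 CPM after stress and 47.4 to 55.6 CPM in naïve mice, and P2ry12 (−0.24), at 37.0 to 51.9 CPM and 43.7 to 55.9 CPM. The remaining genes were Aif1 (−0.17), Tmem119 (−0.09), Cd68 (−0.01) and Csf1r (0.02). Kcnd1 measured 3.39, 2.71, 3.54 and 3.05 CPM in naïve INPUT and 2.14, 2.35, 2.60 and 2.10 CPM in stress INPUT, again without overlap (−0.45, limma adjusted p = 0.85). Kcna4 (−0.18), Kcnv1 (−0.13), Kcna5 (0.48) and Kcns3 (0.19) followed, and Kcnn2 (0.07) was the other higher gene whose groups did not overlap. Groups did not overlap for 2 higher (all genes 1.43%) and 1 lower gene (all genes 1.42%).

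The difference of the stress effect between IP and INPUT was tested with an interaction term over all 16 libraries. None of the 70 genes passed (limma, all genes 0.0225%), voom called 0, and 7 had an unadjusted p under 0.05 by limma (all genes 4.71%), all of them more negative in IP, and 7 by voom. The smallest adjusted p was that of Kcnk13 (difference −0.67, SE 0.21, limma adjusted p = 0.74), followed by Kcnip4 (−0.37) and Kcnj3 (−0.37). Kcnn2 differed by 0.28 in the other direction, with a 95% interval of −0.00053 to 0.56.

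Among symbols that begin with Kcn and that the rule leaves out, Kcne1l encodes a KCNE-type auxiliary subunit and measured 15.6 to 18.8 CPM in the 8 IP libraries and 1.32 to 2.81 CPM in the 8 INPUT libraries, with no overlap. Kcnd3os, Kcnmb4os1 and Kcnrg stayed below 2 CPM in every library. Kcnq1ot1 is a long noncoding RNA and is described with the other observations.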

How the data were processed

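Values were deposited per library as log2 of CPM plus a small constant, which the authors made by aligning reads to mm10 with STAR and counting unique fragments per RefSeq gene with HTSeq; the submitters' notes also name edgeR and limma. Versions, and whether counting used strand, were not given in the sources used here. CPM was recovered by removing the constant, and 100% of values then came out as whole reads within 0.05. Genes with a mean above 1 CPM over the 16 libraries were tested on log2(CPM + 0.1), a scale that understates folds of low genes, with limma 3.58.1 (trend, R 4.3.3) on the 8 libraries of each comparison, or all 16 for the interaction, with Benjamini-Hochberg adjustment over all 13341 genes. Single values were compared with two-sided exact permutation tests over 70 labelings. The script was tested on simulated data. Libraries were separate samples by label, and p-values measure the spread between these. By the methods of the study, IP and INPUT were both drawn from the lysate of each mouse. The comparisons of IP with INPUT and the interaction treated the fractions as independent. Members, gene lists and tests were chosen with earlier results of these data known. The text names the members with the 12 highest and 12 lowest ratios, the 10 highest per-kb levels in naïve IP, the 6 smallest p in each stress comparison, Kcnk1, Kcnk2 and Kcnk10, the 3 genes on each side of the limit and symbols the rule leaves out; others are given where a family or a small count needs them, and some members are not reported here by name. Alternatives were another pseudocount (1 or 0.01), filter, scaling or model, and leaving out each library. The labels place tamoxifen 4 weeks before collection, and the methods of the study give a shorter interval. Coordinates and sequences come from GENCODE M21 (GRCm38).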

Additional observations from a re-analysis of the deposited data

Results flagged for a closer look

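In each group of 4 libraries the highest or lowest value was checked for a gap to its nearest neighbour, as a share of the group's range, above Dixon's 95% critical value. This marked 15 of 140 groups of named members, where chance at 1 in 20 would mark 7.0. In naïve IP replicate 11, Kcnn2 (125.4 CPM, others 94.1 to 98.6) and Kcnk2 (48.52 CPM, others 34.1 to 35.1) were highest, and Kcnab3 (6.149 CPM, others 10.2 to 10.7) and Kcnq3 (45.2 CPM, others 47.8 to 48.3) lowest. In naïve IP replicate 2, Kcnc2 (15.76 CPM, others 12.3 to 12.7) and Kcnmb4 (8.174 CPM, others 7.09 to 7.21) were highest, and in naïve IP replicate 8 Kcnab1 was lowest (3.897 CPM, others 4.60 to 4.62). In stress IP replicate 15, Kcnf1 (12.9 CPM, others 6.44 to 7.50), Kcnj3 (9.844 CPM, others 7.45 to 7.80) and Kcnv1 (11.21 CPM, others 8.68 to 9.01) were highest. In naïve INPUT replicate 14, Kcna2 (573.8 CPM, others 679 to 695) and Kcna4 (52.47 CPM, others 60.6 to 62.0) were lowest and Kcnip4 highest (125.2 CPM, others 104 to 107). Kcnk10 was lowest in naïve INPUT replicate 7 (7.83 CPM, others 9.15 to 9.43), and Kcnj13 highest in stress INPUT replicate 1 (2.44 CPM, others 1.32 to 1.51).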

How the results depend on the processing

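The counts of members called higher in IP were 10 (naïve) and 11 (stressed) under median ratio rescaling and 11 in both under quantile normalization, against 6 by CPM. Over all genes the higher counts were 5575 and 5443 under median ratio rescaling, 5646 and 5614 under quantile normalization, and 3162 and 3150 by CPM. The other alternatives kept the counts of higher and of lower members within 1.5 times, and no stress or interaction test called a member under any alternative run. Leaving out each library in turn gave 5 to 6 higher and 59 to 60 lower members in naïve mice, 6 to 6 and 59 to 61 in stressed mice, and 0 to 0 in IP, INPUT and the interaction. Under median ratio rescaling and quantile normalization the log2 ratios of Kcnd1 (0.46 and 0.84) and Kcnk2 (0.54 and 0.47) turned positive, by construction of scalings that centre all genes. No paired analysis was possible because the library numbers 1 to 16 are not shared between groups. Depth limits members such as Kcna5 and Kcnj8, with 0 to 9 reads in an IP library, and 4 libraries per group limit the stress comparisons.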

Other observations

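Kcnq1ot1, a long noncoding RNA that the rule leaves out, measured 29.0 CPM in naïve IP replicate 11, 24.7 in stress IP replicate 15, 25.5 in stress INPUT replicate 9 and 57.2 in naïve INPUT replicate 14, against 71.5 to 112 CPM in the other 12 libraries. Replicates 11, 15 and 14 also held 4, 3 and 3 of the values that stood apart above, and replicate 9 held none.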
